A study of Mus musculus with 4 samples.

Results

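Expression of the MHC class II pathway and of co-stimulatory molecules was examined by RNA sequencing in microglia of the corpus callosum, a white matter tract, from 7-day-old mouse pups. The genes were chosen by name, and 8 of the 10 had a row in the table of 21044 genes used here: H2-Aa, H2-Ab1, H2-Eb1, Cd74, H2-DMa and H2-DMb1 of the class II pathway, and Cd80 and Cd86 of co-stimulation. No values of Ciita or Cd40 were analysed here. The libraries were 2 from conditional knockout pups, called Lag3cKO-Cx3 in the labels (cKO), and 2 from Lag3fl/fl pups with the genotype label wt (WT). Strain, sex, the number of animals behind a library and the way the cells were isolated are not given in the sources used here. Whether a replicate is 1 animal or pooled tissue is unstated, and the spread behind each p-value is that between libraries, which may be technical.

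The cKO name points to a driver at Cx3cr1, a locus that is active in other mononuclear phagocytes as well as in microglia. WT pups carry the floxed allele, and nothing in the labels says that they carry the driver. A difference between the groups can therefore not be told apart into loss of Lag3 and presence of the driver. Cx3cr1 had 57168 and 45500 counts in the cKO libraries and 101021 and 96016 in the WT libraries. Its log2 fold change of cKO over WT was -1.01 (SE 0.13), with an adjusted p of 0.9997 with edgeR and 2.53e-08 with DESeq2. The cause of this difference was not tested. Lag3 had 595 and 257 counts in the cKO libraries and 6064 and 10007 in the WT libraries, so the labels held at the targeted gene. The log2 fold change of cKO over WT was -4.35 (standard error, SE, 0.52). Its unadjusted p with edgeR was 0.000552. Its adjusted p was 0.9997 with edgeR and 1.04e-19 with DESeq2, so edgeR did not call even the targeted gene. The reason for the difference between these methods was not tested.

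MHC class II molecules are pairs of an alpha and a beta chain that carry peptides from the endosome to the cell surface, where CD4+ T cells read them. LAG3 is an inhibitory receptor that binds MHC class II. The chains assemble on the invariant chain, CD74, which fills the groove until it is cut away by endosomal proteases, and the DM heterodimer then exchanges its last fragment for a peptide. Transcription of these genes depends on the coactivator CIITA, which is recruited by factors bound to the X and Y boxes of their promoters. T cells also need co-stimulation, given by CD80 and CD86 through CD28. Resting microglia are known for low class II expression, which interferon-gamma induces.

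The promoters of H2-Aa and H2-Eb1 are shown because both genes carry the X and Y boxes on which the shared control of class II genes rests, while the libraries that held their reads were the same only in part. Each stretch runs 5′ to 3′ from 120 to 31 bases upstream of the RefSeq start, in GRCm38.p6, and capitals mark the X1 box letters CTNGNAAC and the Y box letters TGATTGG.
H2-Aa, chr17:34287854-34287943, minus strand: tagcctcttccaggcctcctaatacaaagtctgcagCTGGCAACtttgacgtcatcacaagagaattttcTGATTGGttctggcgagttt
H2-Eb1, chr17:34305747-34305836, plus strand: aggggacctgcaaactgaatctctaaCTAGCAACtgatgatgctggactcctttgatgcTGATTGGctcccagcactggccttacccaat
The X1 and Y letters were 26 bases apart in H2-Aa and 25 bases apart in H2-Eb1. H2-DMb1 held the same pair, also 26 bases apart, and the 2 windows listed for H2-DMa and the 1 for Cd80 held neither. H2-Ab1, Cd74 and Cd86 were not searched here. Both H2-DMa windows start elsewhere than the gene position in the files. For H2-DMb1 the RefSeq start was 34153191 and the start in the files 34153072. Its pair thus lies upstream of the RefSeq start but inside the gene by the position in the files.

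Searched on both strands, the Y letters occurred in 7.82% and the X1 letters in 13.2% of 32851 RefSeq windows of the same length. The X1 letters followed by the Y letters within 60 bases occurred in 0.119% of these windows. The search letters were set with the class II promoters in view, and the Y letters contain ATTGG, the CCAAT box on the other strand. A match describes letters and shows no binding.

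Levels are given as FPKM, the read count divided by gene length and library size, when genes are compared with each other. The libraries had total counts from 14645187 to 16770162, and all 10 microglial markers were detected in each. The second cKO replicate stood apart, with 12787 genes at 1 count or more against 14840 to 15899 in the other libraries. Ddx3y, on the Y chromosome, had 1795 and 0 counts in the cKO libraries and 1485 and 1306 in the WT libraries, and Xist had 117 and 4355 counts in cKO and 0 and 0 in WT, so sex transcripts are not matched between the genotypes. Summed FPKM of neutrophil markers was 12.6 and 89.8 in the cKO libraries and 14.1 and 6.23 in the WT libraries, and that of astrocyte markers 39.3 and 94.6 in cKO and 42.9 and 32.2 in WT. Of the 7 astrocyte markers, 5 lay higher in both cKO libraries than in both WT libraries and 0 lower. Of all genes tested, 15.8% lay higher and 20.0% lower in this way. The median log2 fold change of the astrocyte markers was 1.44. The second cKO replicate also had the highest H2-DMa and H2-Eb1 and the lowest H2-Ab1, and the part of these markers in those values was not tested. In bulk samples, fewer cells of a type and less RNA per cell cannot be told apart.

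Cd86 stood highest, at 268.0 and 307.8 FPKM in the cKO libraries and 246.1 and 270.6 FPKM in the WT libraries, above at least 99.3% of all genes in every library. H2-DMb1 followed with a mean of 71.8 FPKM over the 4 libraries, then H2-DMa with 35.7 and H2-Ab1 with 18.6. The libraries of one of these genes did not overlap with those of the next. Cd80 averaged 5.02 FPKM and Cd74 3.53 FPKM, with overlapping libraries. H2-Eb1 and H2-Aa came last, at 0.674 and 0.521 FPKM on average, and overlapped as well. The order thus ran from the co-stimulatory gene Cd86 and the DM genes down to the alpha chain gene H2-Aa.

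**Figure D1:**
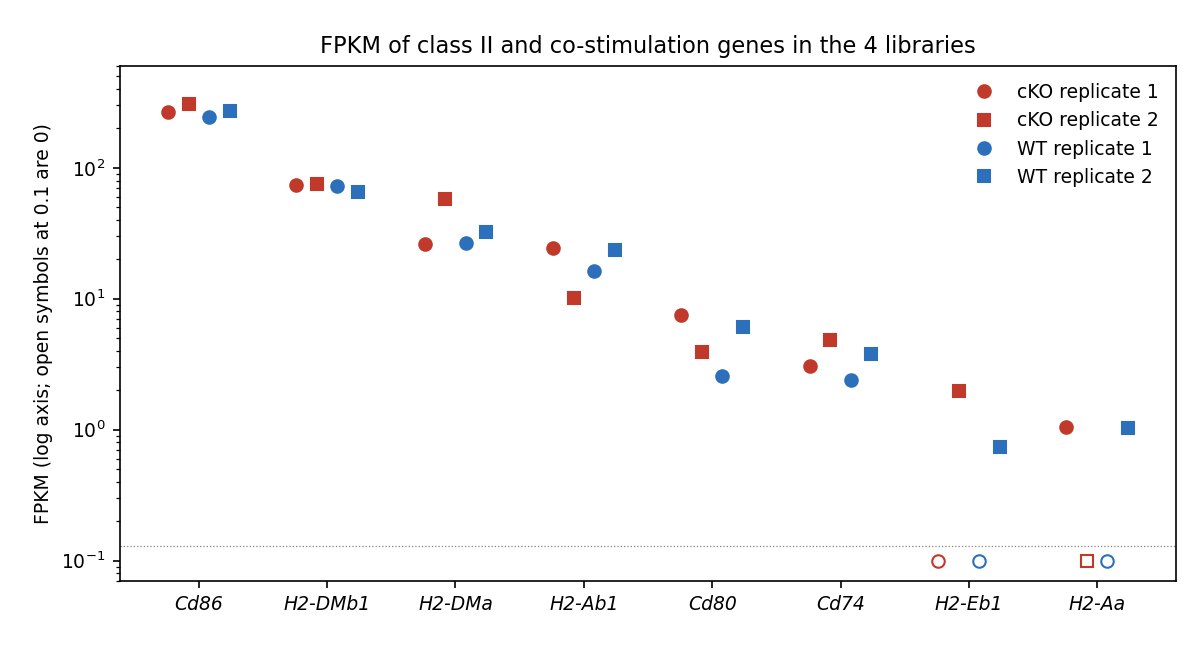
FPKM on a log axis for the 8 genes, with 1 symbol per library, cKO in red and WT in blue, and open symbols for libraries at 0. Cd86 is at 246.1 FPKM or more in every library, and H2-Eb1 and H2-Aa are at 0 in 2 libraries each.

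Between genotypes, none of the 8 genes passed the edgeR quasi-likelihood test with Benjamini-Hochberg adjustment, where 0.0% of 13086 genes tested passed. At an unadjusted p under 0.05 edgeR had 0 of the 8 and 4.65% of all genes, and DESeq2 called 0 of the 8 and 0.31% of the genes it tested. On the scale of TMM-scaled CPM (counts relative to library size), the cKO libraries overlapped with the WT libraries in all 8 genes. Of all genes tested, 35.9% had groups that did not overlap. For H2-DMb1 the overlap was narrow, at 109.1 CPM in WT replicate 1 against 108.9 CPM in cKO replicate 2. In FPKM its cKO libraries, at 73.7 and 75.1, lay above its WT libraries, at 72.6 and 65.9, so the overlap depends on the scale. The log2 fold changes of cKO over WT ran from -0.24 for H2-Ab1 to 1.34 for H2-Eb1, with 6 above 0 and 2 below. Their median was 0.21, beside -0.027 for all genes tested. With 2 libraries a group, an exact two-sided permutation test of a single gene could not go below p = 0.333.

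**Figure D2:**
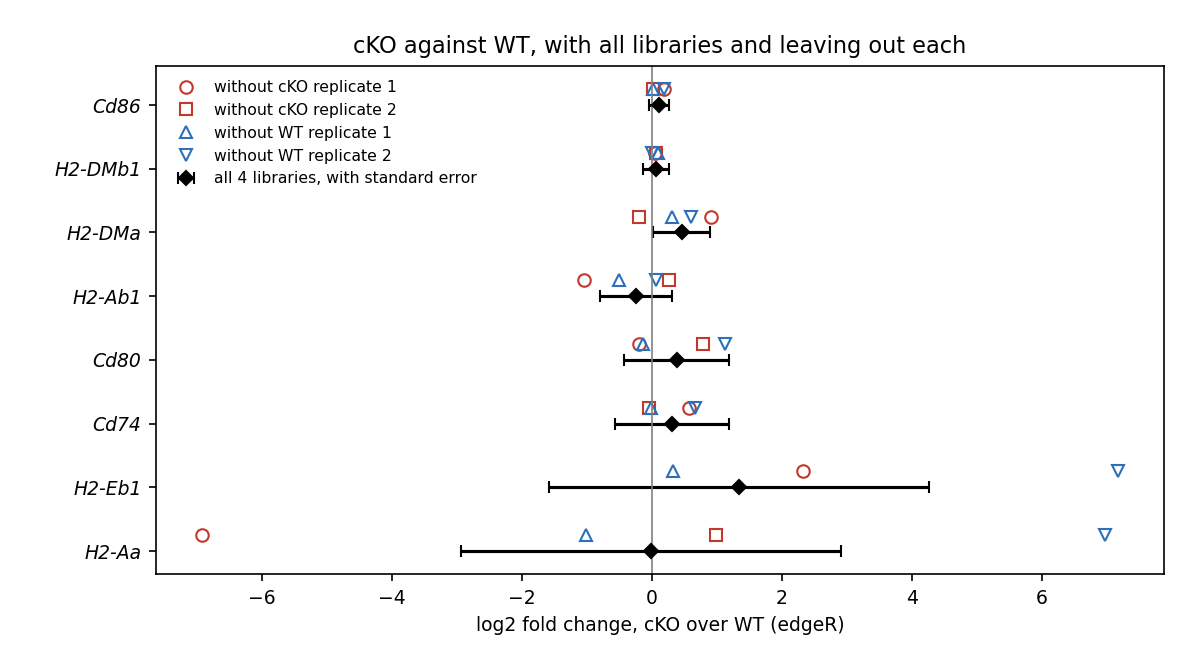
Log2 fold change of cKO over WT for each gene from edgeR, with its standard error (black), and the value without each library in turn (open symbols). Cd86 and H2-DMb1 stay between -0.0037 and 0.19, while H2-Aa moves between -6.92 and 6.97.

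The peptide-binding chains were represented almost wholly by H2-Ab1, the beta chain gene of the I-A molecule. H2-Ab1 (ENSMUSG00000073421, chromosome 17, 34263209 to 34269418, plus strand, GRCm38) had 671 and 244 counts in the cKO libraries and 421 and 581 in the WT libraries. The lowest and the highest of the 4 values were both cKO, so the groups overlapped. Its level was 28.1 ± 16.8 CPM (SD, n = 2) in cKO and 33.2 ± 9.06 CPM (SD, n = 2) in WT. The log2 fold change was -0.24 (SE 0.55, edgeR adjusted p = 0.9997). Without cKO replicate 2 it was 0.26, and without cKO replicate 1 it was -1.04.

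H2-Aa (ENSMUSG00000036594, chromosome 17, 34282744 to 34287827, minus strand) encodes the alpha chain that pairs with the product of H2-Ab1. It had 33 and 0 counts in the cKO libraries and 0 and 29 counts in the WT libraries. One library of each genotype thus held all its reads, and the other none. The exact 95% Poisson intervals were 22.7 to 46.3 counts in cKO replicate 1 and 19.4 to 41.7 in WT replicate 2, against 0 to 3.69 in the libraries without a read. The gap inside each genotype is therefore larger than counting error. Gaps beyond counting error were general between replicates and not particular to H2-Aa. The chi-square per degree of freedom was 107.0 over 14610 genes between the cKO replicates. Between the WT replicates it was 27.8 over 14729 genes, where counting error alone would give about 1. The log2 fold change of H2-Aa between genotypes was -0.01 (SE 2.92). It was 0.98 without cKO replicate 2.

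H2-Eb1 (ENSMUSG00000060586, chromosome 17, 34305877 to 34316199, plus strand), the beta chain gene of the I-E molecule, had 0 and 34 counts in the cKO libraries and 0 and 13 counts in the WT libraries. Both replicates numbered 2 held reads and both numbered 1 held none. Its log2 fold change was 1.34 (SE 2.92), and without cKO replicate 2 it did not pass the filter on low counts. H2-Aa and H2-Eb1 were both detected in WT replicate 2, neither was in WT replicate 1, and each cKO library held only one of them. Of the counts of these 3 chain genes, H2-Ab1 made up 95.3% and 87.8% in the cKO libraries and 100% and 93.3% in the WT libraries. Where H2-Aa was detected, at 1.05 FPKM in cKO replicate 1 and 1.03 FPKM in WT replicate 2, H2-Ab1 stood at 24.4 and 23.7 FPKM.

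**Figure D3:**
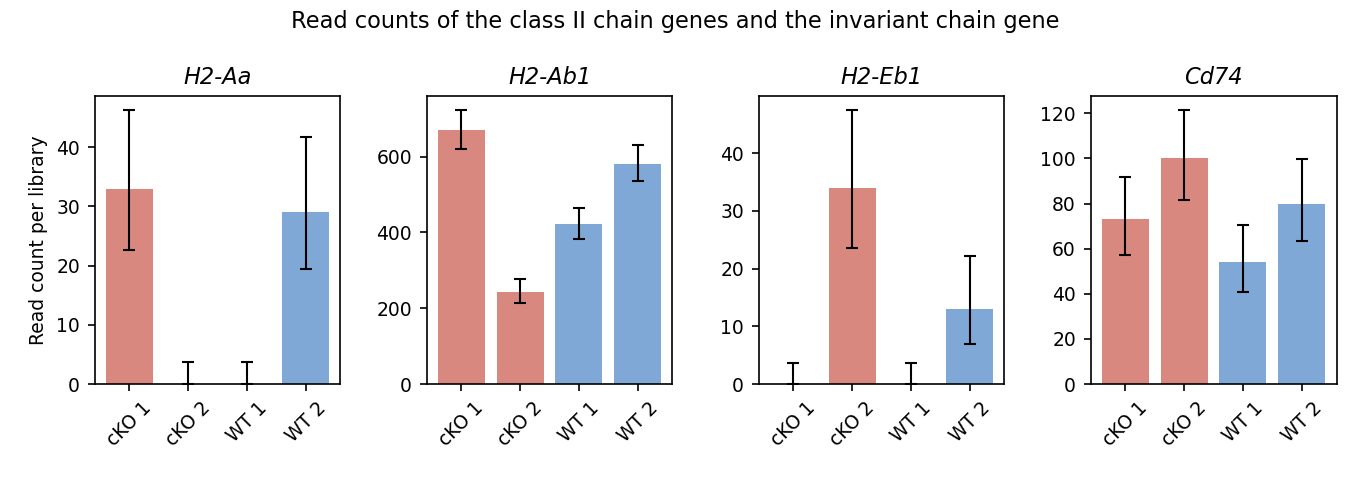
Read counts of the chain genes H2-Aa, H2-Ab1 and H2-Eb1 and of Cd74 in each library, cKO left of WT, with exact 95% Poisson intervals that cover counting error only. Each panel has its own scale, and H2-Aa and H2-Eb1 have no read in 2 libraries each.

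Cd74 (ENSMUSG00000024610, chromosome 18, 60803848 to 60812646, plus strand) encodes the invariant chain. It had 73 and 100 counts in the cKO libraries and 54 and 80 in the WT libraries. The values alternated between the genotypes, with WT replicate 1 lowest and cKO replicate 2 highest. The log2 fold change was 0.31 (SE 0.87), and -0.037 without cKO replicate 2. Per length, Cd74 lay below H2-Ab1 in every library: the FPKM of H2-Ab1 was 7.92 and 2.10 times that of Cd74 in the cKO libraries, and 6.72 and 6.25 times in the WT libraries.

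The DM genes, whose products load peptides onto class II, were the most abundant of the class II set. H2-DMb1 (ENSMUSG00000079547, chromosome 17, 34153072 to 34160230, plus strand), the beta subunit gene, had 1835 and 1634 counts in the cKO libraries and 1710 and 1466 in the WT libraries. It was the steadiest of the 8 genes, with a highest FPKM 1.14 times the lowest. Its log2 fold change was 0.06 (SE 0.20). In GENCODE M21, 27.2% of the 50-base stretches of its transcript also occur in H2-DMb2, so reads may have been split between these copies or lost.

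H2-DMa (ENSMUSG00000037649, chromosome 17, 34135182 to 34139101, plus strand), the alpha subunit gene, had 718 and 1393 counts in the cKO libraries and 698 and 788 in the WT libraries. Only cKO replicate 2 stood apart, and cKO replicate 1 lay below both WT libraries on the CPM scale. The level was 67.8 ± 35.4 CPM (SD, n = 2) in cKO and 49.1 ± 6.55 CPM (SD, n = 2) in WT (log2 fold change 0.46, SE 0.44). Without cKO replicate 2 the log2 fold change was -0.20. The FPKM of H2-DMa was 0.354 and 0.772 of that of H2-DMb1 in the cKO libraries and 0.369 and 0.486 in the WT libraries. From the lowest to the highest library, H2-DMa thus spanned 2.22-fold in FPKM and H2-DMb1 1.14-fold.

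Of the co-stimulatory genes, Cd86 (ENSMUSG00000022901, chromosome 16, 36603869 to 36666081, minus strand), a ligand of CD28 and CTLA4, had 16456 and 16503 counts in the cKO libraries and 14287 and 14834 in the WT libraries. At 1040 ± 85.1 CPM (SD, n = 2) in cKO and 961.8 ± 71.7 CPM (SD, n = 2) in WT, its log2 fold change was 0.11 (SE 0.15), and 0.024 without cKO replicate 2. After scaling, cKO replicate 1 lay between the WT libraries. Cd80 (ENSMUSG00000075122, chromosome 16, 38458933 to 38486933, plus strand), the other ligand of these receptors, had 215 and 98 counts in the cKO libraries and 69 and 154 in the WT libraries. The groups overlapped, and the log2 distance between replicates, -0.96 in cKO and 1.23 in WT, was larger than the log2 fold change between genotypes of 0.38 (SE 0.81). Without cKO replicate 2 it was 0.78, and without cKO replicate 1 it was -0.20. The FPKM of Cd86 was 35.6 and 78.2 times that of Cd80 in the cKO libraries and 96.2 and 44.8 times in the WT libraries.

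The authors' deposited tables set 1 cKO library against 1 WT library. The 4 tables thus use every library in 2 tables, and a call has no replicate behind it. Genes called higher in them had a fold of at least 2, and no called gene had a p above 0.0496. H2-Aa was called higher in cKO replicate 1 against WT replicate 1, with a log2 value of 5.96, and lower in cKO replicate 2 against WT replicate 2, with -5.83, in the authors' deposited tables. Both ratios rest on a count of 0 that the authors replaced by 0.5. With 3 counts put in place of a 0 as a floor per library, the one-sided 95% limit where the two-sided interval above reaches 3.69, H2-Aa was at least 10.4-fold higher in the first pair and at least 9.46-fold lower in the other. These folds take the count of the library with reads as observed, without its own counting error. H2-Eb1 was called higher in cKO replicate 2 against either WT library and lower in cKO replicate 1 against WT replicate 2, in the authors' deposited tables. Against the same floor it was at least 12.3-fold higher in cKO replicate 2 than in WT replicate 1, and at least 4.85-fold lower in cKO replicate 1 than in WT replicate 2.

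Each of H2-Ab1, Cd74, H2-DMa and Cd80 was called in 1 of the authors' deposited tables, and Cd86 and H2-DMb1 in none. H2-Ab1 was lower in cKO replicate 2 against WT replicate 2, with a log2 value of -1.22. Cd74 and H2-DMa were higher in cKO replicate 2 against WT replicate 1, with 1.00 and 1.11, and Cd80 in cKO replicate 1 against WT replicate 1, with 1.56. The 8 genes were listed in all 4 tables, except H2-Aa and H2-Eb1, which were listed in 3 each. H2-Aa was absent with cKO replicate 2 against WT replicate 1, and H2-Eb1 with cKO replicate 1 against WT replicate 1. With cKO replicate 1 against WT replicate 1, 2 members were called higher, as were 20.3% of all listed genes, and 36.1% were called either way. With cKO replicate 1 against WT replicate 2, 1 member was called lower, as were 17.6% of all genes, and 34.8% either way. With cKO replicate 2 against WT replicate 1, 3 members were called higher, as were 18.1% of all genes, and 46.8% either way. With cKO replicate 2 against WT replicate 2, 1 member was called higher and 2 lower, as were 17.1% and 31.7% of all genes, and 48.8% either way. Calls in opposite directions in different tables, as for H2-Aa and H2-Eb1, were found for 11.9% of 18459 genes.

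**Figure D4:**
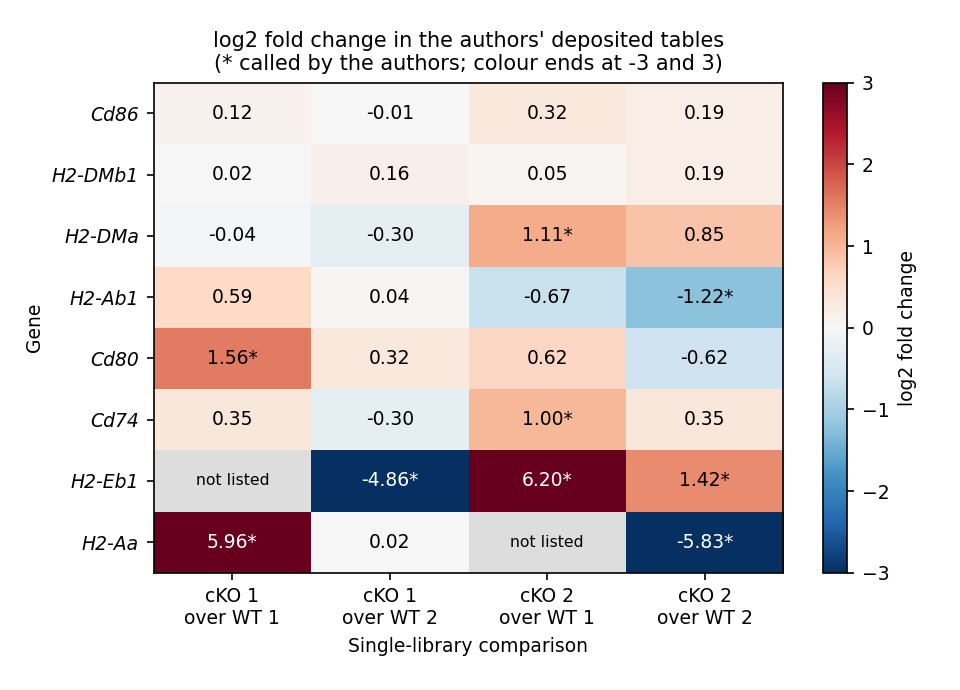
Log2 fold change of 1 cKO library over 1 WT library in the authors' deposited tables, with genes as rows and tables as columns, and calls of the authors starred. H2-Aa is at 5.96 in one table and at -5.83 in another, and Cd86 lies between -0.01 and 0.32.

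Other genes of the pathway were read from lists in the same fit. No gene of these lists passed edgeR, and Lag3 alone passed DESeq2, with adjusted p = 1.04e-19. Other class II genes and genes of class II processing numbered 11 tested of 12, with 6 fitted above 0 and 5 below, and a median of 0.02. Ctss, the protease cathepsin S that trims the invariant chain, was at 1082 and 1558 FPKM in the cKO libraries and 955.3 and 899.4 FPKM in the WT libraries (log2 fold change 0.46, SE 0.21). Ctsl, cathepsin L, had a log2 fold change of -0.30. H2-DMb2, the second DM beta gene, was at 2.65 and 9.38 FPKM in the cKO libraries and 1.70 and 1.83 FPKM in the WT libraries (log2 fold change 1.71, SE 0.94). It shares sequence with H2-DMb1, which makes its count uncertain too. The cKO libraries lay above both WT libraries for 3 genes of the list and below for 3, where 15.8% and 20.0% of all genes did so.

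Factors of the X and Y boxes numbered 6 tested of 7, with a median of -0.09, 2 above 0 and 4 below. Creb1, which binds next to the X1 box, had a log2 fold change of -0.49 (SE 0.82). It was at 5.39 and 1.01 FPKM in the cKO libraries and 3.61 and 5.18 FPKM in the WT libraries, so only cKO replicate 2 lay low. Nfya and Nfyc, subunits of the Y box factor, had log2 fold changes of 0.17 and 0.19. All 6 tested genes had overlapping groups, and without cKO replicate 1 their median was 0.20, a setting chosen after seeing the data, as were the others for lists. With cKO replicate 2 dropped instead, it was 0.10. The list of interferon-gamma signalling towards Ciita held 9 tested of 10 genes, with a median of 0.04, 5 above 0 and 4 below, and a median of -0.32 without WT replicate 2. The receptor gene Ifngr1 was at 552.0 and 564.6 FPKM in the cKO libraries and 355.9 and 503.6 FPKM in the WT libraries. Its log2 fold change was 0.33 (SE 0.21). Socs1, a feedback inhibitor, was at 5.62 and 5.60 FPKM in the cKO libraries and 2.43 and 1.81 FPKM in the WT libraries.

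Among other co-stimulatory and co-inhibitory ligands, 9 of 13 genes were tested, with a median of 0.11, 5 above 0 and 4 below, and medians of -0.37 without cKO replicate 2 and -0.21 without WT replicate 2. Cd276, the B7 homologue B7-H3, was at 9.47 and 16.7 FPKM in the cKO libraries and 17.6 and 23.8 FPKM in the WT libraries. Icosl, the ligand of ICOS, and Icam1, an adhesion molecule of the contact with T cells, had log2 fold changes of 1.10 and 0.34. Their SE was 0.76 and 0.19. Signalling genes below CD40 had 7 tested of 8 and a median of 0.28, with 4 above 0 and 3 below. That median was -0.37 without cKO replicate 2. Traf6, an adaptor of CD40, was at 3.40 and 3.39 FPKM in the cKO libraries and 5.89 and 4.83 FPKM in the WT libraries (log2 fold change -0.70, SE 0.31). Traf3 and Map3k14, an inhibitor and the kinase of the noncanonical NF-kB pathway, had log2 fold changes of 1.35 (SE 1.09) and -0.78 (SE 0.58). Traf3 was at 1.05 and 9.97 FPKM in the cKO libraries and 2.78 and 1.39 FPKM in the WT libraries, with overlapping groups. Map3k14 was at 5.73 and 2.02 FPKM in cKO and 6.44 and 6.58 FPKM in WT. In both genes cKO replicate 2 stood farthest from the other libraries.

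Receptors on the T cell side had 3 tested of 6 genes, 1 above 0 and 2 below, and a median of -0.60. Lag3, the targeted gene, was among the 2 below. Besides Lag3, Cd28 lay below 0, at -0.60, and Icos above, at 0.91, so the median describes no shared direction. With Lag3 still in the list, dropping cKO replicate 1 gave a median of -0.84, and dropping cKO replicate 2 gave -0.39. Cd28, the receptor of CD80 and CD86, was at 5.73 and 4.32 FPKM in the cKO libraries and 7.32 and 7.44 FPKM in the WT libraries. Icos was at 4.45 and 12.6 FPKM in cKO and 4.08 and 4.65 FPKM in WT (log2 fold change 0.91, SE 0.60), with overlapping groups. Of 4 other LAG3 ligands only Lgals3, which encodes galectin-3, was tested. It was at 115.2 and 90.1 FPKM in the cKO libraries and 156.7 and 120.5 FPKM in the WT libraries. Its log2 fold change was -0.47 (SE 0.24).

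**Figure D5:**
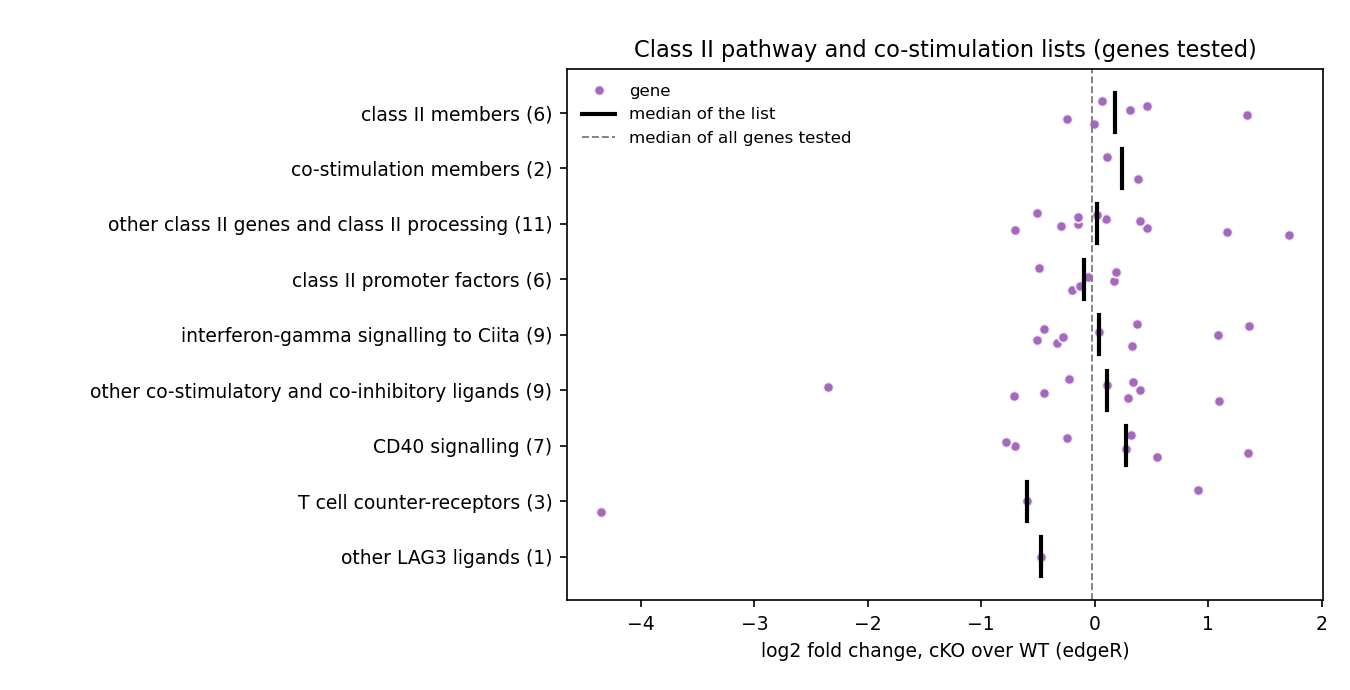
Log2 fold change of cKO over WT for each tested gene of the pathway lists (points), the median of each list (black bar) and the median of all genes tested (dashed line). The medians of lists other than the T cell counter-receptors and other LAG3 ligands lie between -0.09 and 0.28, and Lag3 is the point at -4.35.

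Immune cells other than resting microglia, only some of which carry much class II, were looked for by their markers. Of the dendritic cell markers, 7 of 8 had a row, summing to 4.12 and 4.58 FPKM in the cKO libraries and 7.499 and 4.93 FPKM in the WT libraries, and 2 and 4 of them were at 0 in the cKO libraries and 1 and 2 in the WT libraries. Most of these sums came from Batf3, at 2.84 and 4.32 FPKM in the cKO libraries and 5.17 and 3.09 FPKM in the WT libraries, while Flt3 and Xcr1 stayed at or under 0.276 FPKM in every library. Zbtb46 was at 0.526 and 0.0722 FPKM in the cKO libraries and 1.10 and 1.01 FPKM in the WT libraries. Of the 5 tested dendritic cell markers, 3 lay lower in both cKO libraries than in both WT libraries and 0 higher. Of all genes tested, 20.0% lay lower and 15.8% higher in this way. The median log2 fold change of these low markers was -1.84. Border macrophage markers summed to 107.1 and 117.9 FPKM in cKO and 101.7 and 100.8 FPKM in WT, most of it Mrc1. Of the B cell markers 3 of 6 had a row, and Cd79a was at 0 and 4.50 FPKM in the cKO libraries and 0.303 and 0 FPKM in the WT libraries. Their sum was 324.0 and 365.9 FPKM in cKO and 290.0 and 381.2 FPKM in WT, nearly all from Ighm and Cd79b. Of the T and NK cell markers 3 of 6 had a row, summing to 0.181 and 0.346 FPKM in cKO and 0.614 and 0.135 FPKM in WT. Monocyte markers summed to 12.6 and 38.6 FPKM in cKO and 18.0 and 5.04 FPKM in WT. The part of such cells in the class II counts was not tested.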

How the data were processed

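Per the submitters' processing notes, HTSeq 0.6.0, TopHat2 2.0.12 and Bowtie2 2.2.3 were used with mm9; settings and strand are unknown here. Gene positions in the files equal those of GRCm38 for 92.1% of 21008 genes shared with GENCODE M21, so positions are given as GRCm38. Per the file headers, the authors deposited FPKM values and, in 4 tables, read counts per gene. These tables also hold a normalized signal with a count of 0 replaced by 0.5, which the authors made. The fold ratio, its log2 value and its p-value in these tables are the authors' own, and no source used here names their test.

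Counts were joined for 18459 genes, and 4315 of 73836 cells missing from the tables, at most 4 counts each, were recovered from FPKM (100.0% whole within 1e-06). edgeR 4.0.16 in R 4.3.3 was run on all 4 libraries with TMM scaling, the filterByExpr filter and its quasi-likelihood test, calling at an adjusted p under 0.05. Standard errors come from the F statistic. The script was also run on simulated counts, whose spread between libraries was set and not taken from these data. That run therefore does not show what the test can find in these libraries. Positions of sequences and windows come from RefSeq. Up to 3 genes per list were named by the smallest unadjusted p. A gene that this rule names is not reported here. Members and lists were chosen with earlier results of these data known. Alternatives were DESeq2 1.42.0, limma 3.58.1 on log2 FPKM, other scalings and filters, a replicate block and leaving out each library.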

Additional observations from a re-analysis of the deposited data

How the results depend on the processing

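No member was called under any of the alternatives run. Over all genes edgeR called 0, DESeq2 called 39, and 0 to 910 were called when single libraries were dropped. The count of 910 came without cKO replicate 1, where the remaining cKO library was taken to have the WT spread. The cause was not tested. The median of the members, 0.21, was 0.0035 to 0.64 over leaving out each library, the highest without WT replicate 2. Dropping 1 library turned the direction for Cd74 (-0.037 to 0.67), Cd80 (-0.20 to 1.13), H2-Ab1 (-1.04 to 0.26), H2-DMa (-0.20 to 0.91), H2-DMb1 (-0.0037 to 0.10) and H2-Aa (-6.92 to 6.97). H2-Aa, at -0.01, was 0.002 with DESeq2 size factors, 0.0059, 0.01 and 0.0078 with limma at pseudocounts of 1, 0.1 and 0.5, and 0.015 with the replicate block. Cd86 and H2-Eb1 kept their direction wherever they were tested, but H2-Eb1, at 1.34, was 0.32 without WT replicate 1, 7.17 without WT replicate 2 and 0.39 to 0.65 with limma, and did not pass the filter of 1 CPM in 2 libraries or that without cKO replicate 2. The labels do not say that a replicate number marks a shared origin, and deviations of same-numbered libraries correlated at -0.0229 across 13086 genes, so the replicate block, with 0 genes called, pairs nothing known. For H2-Aa and H2-Eb1, a count of 0 allows up to 3 counts at the depth of its library (one-sided limit). The values of -6.92 and 6.97 for H2-Aa and of 7.17 for H2-Eb1 rest on such a 0. In those fits the only library left in 1 group held no read of the gene, so their size is no estimate.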

Other observations

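By the rule for likeness of pattern, the 5 genes closest to the mean class II pattern over the 4 libraries were Tial1, Map7d1, Gcat, Zranb3 and Nlrp1a, at Euclidean distances of 0.139 to 0.211 on centred log2 CPM. That mean pattern was -0.78 in WT replicate 1 and 0.61 in WT replicate 2, and 0.03 and 0.13 in the cKO libraries. In WT replicate 1 it was carried by the genes without a read there, H2-Aa at -2.01 and H2-Eb1 at -1.80, while the other class II genes lay between -0.47 and 0.03. In WT replicate 2, H2-Aa was at 2.02 and H2-Eb1 at 1.18, with the other class II genes between -0.09 and 0.46. In the cKO libraries, H2-Aa at 2.01 and -2.01 and H2-Eb1 at -1.80 and 2.42 offset each other in the mean. The pattern thus rests largely on these low-count genes. Single class II genes were farther from the mean pattern, from 0.651 for Cd74 to 3.47 for H2-Aa, and 228 of 9338 genes compared were closer than every one of them.

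In the authors' deposited tables the adjusted p was below the p for 53186 of 64331 entries, and the highest adjusted p was 0.211. A Benjamini-Hochberg adjustment does not give values below the p. For this reason no adjusted p of those tables is used here.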
